A study of Mus musculus with 3 samples.

Results

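Ventral excitatory (VE) neurons are described here in the lumbar spinal cord of SOD1G93A and WT mice. They are the nuclei that the authors classed as neurons other than motor neurons and to which they gave the sub-type VE. They number 1317 of 8800 neurons (15.0%) and of 14662 nuclei in all (8.98%). They are compared with 3089 dorsal excitatory (DE), 198 mid excitatory (ME) and 496 ventral inhibitory (VI) nuclei and, for genotype, with 67 motor neuron nuclei. The study asked how single types of cell in the cord respond to mutant SOD1 in each sex. SOD1G93A mice were B6.Cg-Tg(SOD1*G93A)1Gur/J animals, which carry a human SOD1 transgene of high copy number with a mutation of familial amyotrophic lateral sclerosis (ALS), and the C57BL/6J controls without the transgene are called WT. There were 3 females and 3 males of each genotype, all aged 90 days and otherwise untreated. Nuclei were isolated from frozen tissue and marked with a hashtag for each mouse of a pool. They were pooled by 4 mice, 1 of each sex and genotype, into pools A, B and C for 10x sequencing. The same hashtag stood for the same sex and genotype in every pool, so effects of hashtag and of genotype cannot be told apart. The transgene is not limited to 1 cell type, so that an effect that arises in VE neurons and one that arises around them cannot be told apart.

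Excitatory interneurons of the ventral horn release glutamate, for which they load vesicles with the transporter encoded by Slc17a6. They belong to the circuits that give rhythm and pattern to walking, and they contact motor neurons and inhibitory interneurons. In the embryo their classes are set apart by transcription factors, such as Shox2 in some rhythm-related neurons, and in the adult many of these genes are low.

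Each mouse gave 28 to 247 VE nuclei and 583856 to 6452469 VE UMIs, the counted RNA molecules. WT mice gave 66, 148 and 247 nuclei (lowest, median and highest) and SOD1G93A mice 28, 62 and 119. A VE nucleus held a median of 19812 UMIs and 4866 genes, which was more than in DE (10188 UMIs) and ME (11728.5) nuclei and less than in VI nuclei (23031). The score with which nuclei had been mapped to the reference atlas, a fraction of 1, had a median of 0.490 in VE against 0.945 in DE, 0.687 in ME and 0.433 in VI neurons. VE labels were thus among the less certain ones. Of 15 barcodes that occur in several pools, 0 belonged to VE nuclei in both, and 39 VE nuclei held over 3 times the median UMIs.

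The label was first compared with its marker. Levels in this check, and those of clusters, finer labels and class factors further on, are UMIs of a gene per 1000000 UMIs (CPM) of the pooled nuclei, with exact Poisson intervals for counting error only. Slc17a6 stood at 107 CPM in VE neurons (95% interval 103 to 111), between 87.3 and 124 in single mice, and thus near DE (119) and ME neurons (93.9) and well above VI neurons (26.7). However, Slc6a5, the glycine transporter of inhibitory terminals, stood at 46.4 CPM in VE neurons against 12.4 in DE, 13.4 in ME and 157 in VI neurons. Pax2, a transcription factor of inhibitory spinal neurons, stood at 34.9 CPM in VE, 7.85 in DE, 7.05 in ME and 104 in VI neurons. Gad2 (16.6 CPM) and Slc32a1 (12.1 CPM), which serve GABA synthesis and vesicular loading, were between their levels in DE and VI neurons. A UMI of Slc17a6 was seen in 67.5% of VE nuclei, and in 12.4% of oligodendrocytes, which should lack it and have a median of 5786 UMIs. With each nucleus thinned to 5000 UMIs the shares were 37.9% and 8.19%. The other vesicular glutamate transporters were nearly absent, with 4 UMIs of Slc17a7 and 20 of Slc17a8.

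The mixed markers were unevenly spread over groups of VE nuclei, and some groups held both. The authors' clustering of all cells spread them over 15 clusters, of which 4 held most: cluster 0 had 652 nuclei, cluster 4 had 228, cluster 14 had 196, cluster 11 had 114, and 11 other clusters shared 127. In cluster 0, Slc17a6 reached 137 CPM and Slc6a5 9.83 CPM. Cluster 14 had 104 and 58.7 CPM, and cluster 4 had 66.6 and 90.2 CPM. In cluster 11, Slc17a6 was at only 9.22 CPM (22 UMIs), while Slc6a5 was at 152 and Pax2 at 134 CPM, the levels of VI neurons. The 114 nuclei of cluster 11 therefore go against the excitatory label. The counts over all genes between sub-types, the VE share and the tests of genotype were recomputed without them. In all, 297 VE nuclei (22.6%) held at least 3 UMIs summed over Gad1, Gad2, Slc32a1 and Slc6a5, with 10.6% to 31.9% in single mice, against 3.53% of DE and 74.4% of VI nuclei. After thinning the shares were 4.37% of VE, 0.614% of DE and 17.7% of VI nuclei. The inhibitory marker went with the mapping score: the 258 nuclei with a score under 0.35 had 75.7 CPM of Slc17a6 and 72.5 of Slc6a5, and the 332 nuclei above 0.65 had 135 and 16.3.

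**Figure D1:**
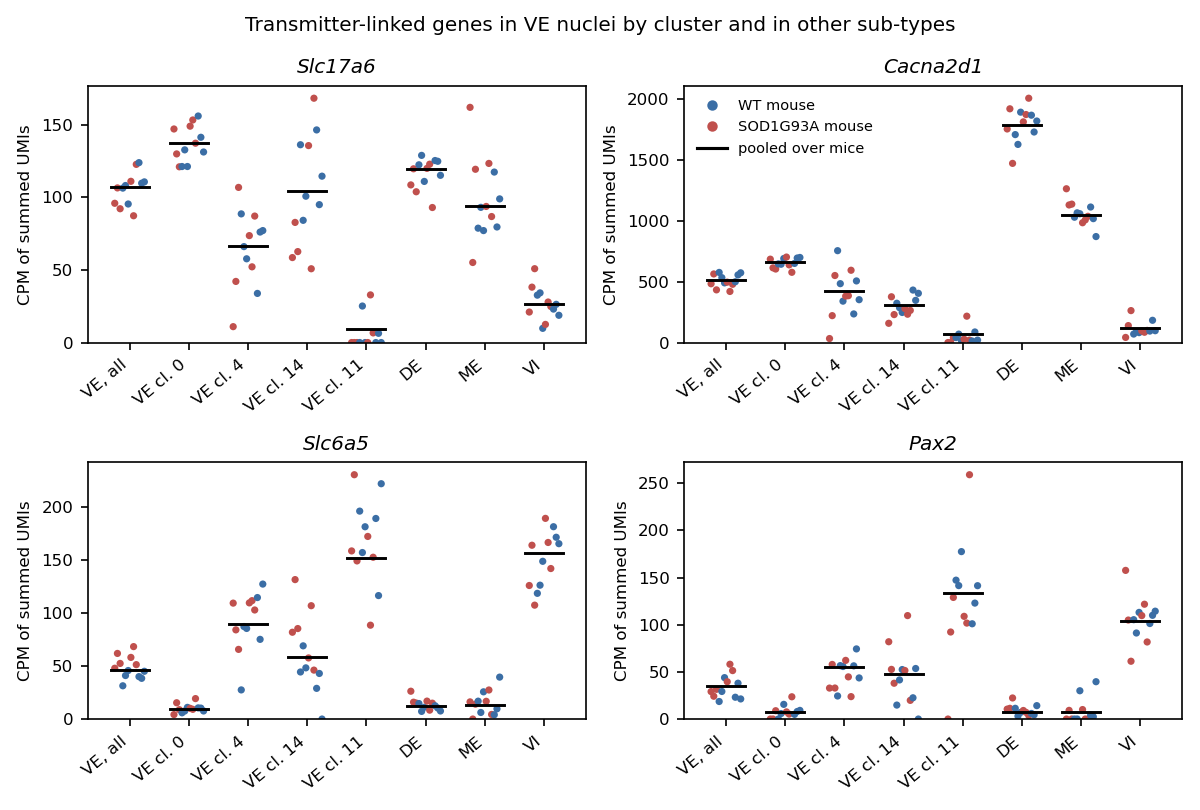
Levels in CPM (y axis) of Slc17a6, Cacna2d1, Slc6a5 and Pax2 in all VE neurons, in the VE nuclei of clusters 0, 4, 14 and 11, and in DE, ME and VI neurons (x axis). Points are mice (blue WT, red SOD1G93A) and black bars are the pooled nuclei. Slc17a6 was at 137 CPM in cluster 0 and at 9.22 CPM in cluster 11, where Slc6a5 was at 152 CPM.

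Within a cluster, few genes were counted as different between nuclei labelled VE and VI. The rule asks for every mouse, so mice with few nuclei limit these counts. Cluster 14 held nuclei of both labels in 11 mice, with as few as 4 VE or 3 VI nuclei in a mouse. There, 7 of 3351 genes (0.209%) were higher and 9 (0.269%) lower in the VE nuclei. A gene was counted here if it was at 50 CPM or more in the higher group, differed at least 2-fold in the mean log2 ratio and had the same direction in every mouse. Higher were Tmem163, a zinc transporter (311 against 55.1 CPM), Slc17a6 (104 against 23.1), Cacna2d1, a calcium channel subunit (311 against 57.5), Cpne4, Nrn1, Sema5a and Ebf1. Lower were Foxp2 (77.6 against 247 CPM), Slc6a5 (58.7 against 194) and Pax2 (47.5 against 122) among others. In cluster 4, 0 of 3357 genes were counted as higher (0.0%) and 0 as lower (0.0%). All 12 mice held both labels there, and the smallest had 4 VE and 3 VI nuclei. Slc6a5 (90.2 against 139 CPM, log2 −0.64) and Cacna2d3 (832 against 1277 CPM, −0.66) were lower in 12 of 12 mice but under 2-fold. Slc17a6 (66.6 against 15.5 CPM) and Cacna2d1 (424 against 81.2) were each higher there in 11 of 12 mice, and Foxp2 (55.1 against 167) lower in 10 of 12. Cluster 11 held both labels in 11 mice, with as few as 3 VE or 2 VI nuclei in a mouse. There, 2 of 3409 genes were higher (0.0587%), among them Fam19a1, which encodes a secreted protein of neurons (195 against 51.1 CPM). The lower gene, 1 of 3409 (0.0293%), was Kcnmb2, a subunit of large-conductance potassium channels (44.9 against 327 CPM). Since the labels were given from the RNA of these nuclei, these and the next differences between sub-types are a description, and none of them was tested.

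Genes were then set against the other sub-types within each mouse. The level is now the mean over 12 mice of CPM on scaled library sizes, the difference is the mean log2 ratio ± SD over the 12 mice, and genes were counted by the same rule. By the correlation of log2 levels over 3204 genes, VE neurons were closest to VI neurons (median r over the 12 mice 0.974), followed by ME (0.891) and DE neurons (0.864). The lowest r in a mouse was 0.872 for VI, 0.737 for ME and 0.818 for DE neurons, and ME sums were as small as 61732 UMIs. The correlation was not recomputed without the nuclei of cluster 11. Clusters 4, 14 and 11, which VE neurons share, held 228, 145 and 75 of the 496 VI nuclei. This is a description across genes, which are not independent, and the sub-types of a mouse share its pool.

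Against DE neurons, 233 of 3560 genes (6.54%) were higher and 255 (7.16%) lower in VE neurons, and without the nuclei of cluster 11 there were 226 and 253. The largest differences upward were in Trim43c (50.3 against 6.36 CPM, 2.79 ± 0.39), Zfhx3, a large zinc finger homeobox factor (777 against 117 CPM, 2.71 ± 0.32), and Esrrg, an orphan nuclear receptor (977 against 173 CPM, 2.49 ± 0.16). They were followed by Stpg2, Bmpr1b, a receptor for bone morphogenetic proteins, the imprinted gene Snrpn, Lgr5, a receptor for R-spondins, and Aff1, a factor of transcript elongation, with 2.27 to 2.46. Zfhx3 was at 654, 834 and 1182 CPM (lowest, median and highest) in VE neurons of WT mice and at 568, 659 and 930 in SOD1G93A mice. Esrrg was at 826, 957 and 1192 and at 851, 978 and 1122 CPM. Both genes overlapped between the genotypes. UMIs of Zfhx3 and Esrrg were seen in 90.6% and 98.4% of VE nuclei, against 48.5% and 28.8% of the shallower oligodendrocytes, and in 73.0% and 92.7% against 46.2% and 27.7% after thinning.

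Among the genes lowest in VE relative to DE neurons were factors and signals of the dorsal horn. Ebf2, a transcription factor of the EBF family, stood at 43.3 against 1052 CPM (−4.81 ± 1.13). Arhgap6, a GTPase-activating protein gene, followed (65.6 against 1655 CPM, −4.77 ± 0.81), and then the neuropeptide gene Nmu (1.34 against 53.8 CPM, −4.50 ± 0.83) and Lmx1b, a LIM homeodomain factor of dorsal excitatory neurons (6.41 against 123 CPM, −4.20 ± 0.88). Slc24a4, Atp10a, the AMPA receptor auxiliary gene Cacng4 and the phosphodiesterase gene Pde11a lay between −3.67 and −3.79. Lmx1b was at 0.87, 5.74 and 10.6 CPM in VE neurons of WT mice and at 2.96, 7.27 and 11.9 in SOD1G93A mice, so every mouse was far below the mean of DE neurons.

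Counts of list members are read beside the 6.54% of all genes that were higher and the 7.16% that were lower in VE than in DE neurons. Of 12 genes of dorsal classes, most of them transcription factors, at 50 CPM or more, 9 were lower in VE than in DE neurons (Lmx1b, Sox5, Ebf1, Ebf2, Ebf3, Maf, Bcl11a, Satb1 and Cpne4) and 0 were higher, with a median difference of −1.64 against 0.05 over all genes. Ebf1, for example, was at 386 against 3741 CPM (−3.31 ± 0.47). In contrast, 4 of 9 genes known from long-range projecting spinal neurons (the list called group Z in the field) were higher, among them Zfhx3, Esrrg and Syt2, a fast calcium sensor of release (305 against 65.8 CPM, 2.20 ± 0.27). That list's median was 1.63. Group N, the list for local neurons, had Nfia higher (378 against 160 CPM) and Nfib lower (67.2 against 133 CPM). Of the dorsal horn peptide genes, only Nmu and Sst (5.78 against 52.1 CPM) reached 50 CPM, and both did so in DE neurons only. The minimum thus let them be counted only as lower in VE neurons. The same holds for Lmx1b and Ebf2 of the dorsal classes, which were under 50 CPM in VE neurons and also enter that list's median. In every list here and below, a gene under 50 CPM in either group could be counted in a single direction only. Examples below are Gabra4, Cacna1g, Kcnh8 and Nrp1 (only as lower) and Adra1a and Nefm (only as higher). The 26 ventral class factors had 0 members at 50 CPM, so that no difference was counted for them.

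Receptor genes were counted beside the same shares of all genes, 6.54% higher and 7.16% lower. Of 10 AMPA and NMDA receptor genes, Gria3 (896 against 415 CPM) and the scaffold gene Grip1 (2109 against 656 CPM, 1.70 ± 0.30) were higher, and Gria1 (248 against 578 CPM) and Grin3a (268 against 617 CPM) lower, with a list median of −0.12. Of 12 kainate, delta and metabotropic receptor genes, 1 was counted, Grik4, which was higher (289 against 118 CPM), a share near that of all genes. Among 13 receptor genes for GABA and glycine, 0 were higher and 4 lower: Gabra2 (162 against 354 CPM), Gabra4 (10.0 against 55.8), Gabrg3 (541 against 1702) and the glycine receptor gene Glra3 (87.7 against 208). The serotonin receptor gene Htr2c (1104 against 317 CPM) and the adrenergic receptor gene Adra1a (100.5 against 29.8 CPM) were higher, of 4 receptor genes for amines and peptides at 50 CPM or more.

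Channel genes were counted in both directions. Of 17 sodium, calcium and HCN channel genes, 3 were higher in VE than in DE neurons, beside 6.54% of all genes, and 4 lower, beside 7.16%. The higher ones were Scn8a, the sodium channel of the axon's initial segment (499 against 215 CPM), Scn9a (261 against 113) and Cacna2d3 (734 against 244). The lower ones were Cacna1e (277 against 989 CPM), Cacna1g (17.7 against 70.5), Scn3a (83.7 against 225) and Cacna2d1 (513 against 1848). Of 29 potassium channel genes, 3 were higher and 10 lower, beside the same shares. Kcna1, which encodes a channel known from axons (203 against 69.0 CPM), and Kcnab2 were among the higher ones, and Kcnh8 (19.6 against 218 CPM, −3.50 ± 0.65), Kcnd3 (75.2 against 492) and Kcnc2 (259 against 1107) were among the lower ones. Axon guidance genes had 5 higher members, with Robo1 (3535 against 1084 CPM) and its ligand Slit2 (770 against 215 CPM) first, and 6 lower ones, with Nrp1 (35.3 against 315 CPM) first, of 21, beside the same shares. Nefm, a neurofilament gene, was higher (106 against 44.6 CPM), and Gap43, a growth cone protein gene, lower (61.5 against 135 CPM). Of 7 oligodendrocyte markers, 3 reached 50 CPM, and all 3, with Mobp and St18 among them, were lower in VE than in DE nuclei; the part of oligodendrocyte RNA in the other differences was not tested.

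Against ME neurons, 106 of 3450 genes (3.07%) were higher and 76 (2.2%) lower, and without the nuclei of cluster 11 there were 105 and 74. Rbm20, a splicing regulator, had the largest ratio upward (63.96 against 7.74 CPM, 3.72 ± 1.85), and then Zfhx3 (777 against 69.3 CPM, 3.56 ± 0.66), Trim43c, Aff1, the homeobox gene Meis2 (299 against 52.6 CPM), Megf11, Rab37 and the transcription factor gene Mitf (121 against 24.4 CPM). Cdh23, an adhesion molecule (6.30 against 113 CPM, −4.07 ± 1.08), Ankfn1 (50.2 against 679 CPM, −3.67 ± 0.67), Kcnip3, a vesicle protein gene Synpr (45.3 against 381 CPM, −3.09 ± 0.46), Sema3e, Nfib (67.2 against 524 CPM, −3.00 ± 0.56), Fnbp1l (−2.93 ± 0.58) and Cep112 (−2.59 ± 0.47) were lowest relative to ME neurons. Syt2, Esrrg and Zfhx3, 3 of 8 group Z genes, were higher, beside 3.07% of all genes. Of 29 potassium channel genes, 2 were higher, Kcna1 among them, and 2 lower. Of 14 GABA and glycine receptor genes, 0 were higher and 4 lower, beside 2.2% of all genes, with Gabra4, Gabrg3 and Glra3 among them. The NK1 receptor gene Tacr1 (43.3 against 120 CPM) and Bdnf, a neurotrophin gene (16.1 against 68.7 CPM), were lower too. ME neurons gave only 5 to 30 nuclei per mouse.

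Against VI neurons, 7 of 3322 genes (0.211%) were higher and 5 (0.151%) lower. Tmem163 led (302 against 51.3 CPM, 2.76 ± 0.98), followed by Cacna2d1 (513 against 112 CPM, 2.34 ± 0.72) and Slc17a6 itself (107 against 26.6 CPM, 2.07 ± 0.67). Cpne4 (97.0 against 30.4 CPM, 1.75 ± 0.81), Fam19a1 (705 against 258 CPM, 1.48 ± 0.35), Col25a1, a transmembrane collagen gene, and Prex2, a Rac exchange factor gene, completed the 7. Cacna2d1 was at 487, 542 and 609 CPM in WT and at 434, 478 and 551 in SOD1G93A mice, and every mouse was above the VI mean. The lower genes were Foxp2, a forkhead factor (57.0 against 187 CPM, −1.73 ± 1.15), Pax2 (34.4 against 105 CPM, −1.64 ± 0.59), Slc6a5 (48.9 against 150 CPM, −1.60 ± 0.35), Kcnmb2 (60.1 against 173 CPM, −1.48 ± 0.51) and Erbb4, a neuregulin receptor (814 against 1796 CPM, −1.15 ± 0.35). Next in size, with the same direction in 12 of 12 mice but under 2-fold, were Ebf1 (0.93 ± 0.38) upward and Nrxn3 (−0.94 ± 0.12), Cacna2d3 (−0.91 ± 0.27) and Nxph1 (−0.88 ± 0.22) downward. Of the genes that parted VE from DE neurons, Esrrg was at 1377, Syt2 at 337, Scn8a at 498 and Kcna1 at 218 CPM in VI neurons and none of these 4 was counted here, whereas Cacna2d1 and Cpne4 were counted in both comparisons. Of the listed genes for glutamate, GABA and glycine receptors and for potassium channels, 0 were counted in this comparison. This is near the shares of all genes, 0.211% higher and 0.151% lower, and so is not a result about these lists. Kcnmb2 was not on the potassium channel list. Without the nuclei of cluster 11, the 3322 genes became 3323, with 7 higher and 6 lower.

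VE neurons varied among themselves. The authors' finer labels divided them into VE_4 (1041 nuclei), VE_1 (248), VE_2 (27) and VE_3 (1). In VE_1, 40 of 3416 genes (1.17%) were higher and 39 (1.14%) lower than in VE_4 in every mouse. Higher were Mecom, a zinc finger factor (239 against 14.9 CPM, 3.76 ± 1.28), the cation channel gene Trpc4 (67.8 against 11.7, 2.39 ± 0.47) and Zfhx3 (2028 against 519, 1.93 ± 0.33). Lower were Rbm20 (17.1 against 71.7 CPM), Aff1 (36.4 against 133), Sox5 (79.8 against 215), Esrrg (465 against 1018) and Slc6a5 (15.7 against 51.9). Hence Zfhx3 and Esrrg, both high in VE relative to DE neurons, were distributed in opposite ways between the labels. All 114 VE nuclei of cluster 11 carried the label VE_4, and this comparison was not recomputed without them.

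The clusters differed as well. Relative to cluster 0, cluster 14 had 10 of 3405 genes (0.294%) higher and 46 (1.35%) lower. Rbm20 (148 against 25.8 CPM), Nfib (101 against 29.4) and Aff1 (225 against 93.7) were higher there, and the extracellular matrix gene Reln (26.8 against 200.5), Kcnc2 (50.4 against 292), Glra3 (27.9 against 123) and Gria1 (74.7 against 299) lower. Cluster 11 had 7 of 3393 (0.206%) higher, with Slc6a5, Gad2 (51.1 against 6.38 CPM) and Nrxn3 (8882 against 3519) among them, and 37 (1.09%) lower, with Tmem163 (25.6 against 392), Slc17a6, Cacna2d1 (66.7 against 663) and Zfhx3 (84.7 against 1102) among them. Cluster 4 had 5 of 3324 (0.15%) higher, which were Slc6a5, Pax2, Il1rapl2 (972 against 124 CPM), Erbb4 (1580 against 485) and Nxph1, and 3 (0.0903%) lower, which were Tmem163, Slc17a6 and Bcl11a.

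The factors of embryonic ventral classes were low but not evenly spread. Shox2 had 46 UMIs in VE neurons, 41 of them in cluster 0, and 0 in clusters 4 and 11 (0 of 2385517 UMIs of all genes in cluster 11). Lhx4, a LIM factor of V2 and motor neurons, was at 8.32 CPM in cluster 0 and 5.88 CPM in cluster 14, against 0.205 CPM (1 UMI) in cluster 4 and 0.77 CPM in VI neurons. Sox14 and Lhx9 (46 and 57 UMIs in cluster 0, 15 and 17 in cluster 14) had 0 UMIs in clusters 4 and 11. Sim1, the V3 factor, was highest in cluster 4, with 8.81 CPM from 43 UMIs. Evx1, of a V0 class, had 5 UMIs in all VE neurons. Chat, the enzyme of acetylcholine synthesis, was at 2.99 CPM in VE and at 154 CPM in motor neurons.

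The share of VE nuclei among neurons was compared between the genotypes. In WT mice it was 13.6%, 15.3% and 16.1% (lowest, median and highest; mean 15.1% ± 1.01, SD, n = 6), and in SOD1G93A mice 10.4%, 13.7% and 20.1% (14.2% ± 3.60, n = 6). The SOD1G93A values lay on both sides of the WT range, and the share was lower in 4 of 6 pairs of mice of the same sex and pool. The mean difference of −0.95 percentage points did not pass the exact two-sided sign-flip permutation test (p = 0.375, adjusted p = 0.438 over 5 shares, smallest possible p 0.0312). In edgeR's quasi-likelihood test on nuclei, the fold was 0.928 (adjusted p = 0.809 over 8 sub-types). Without the SOD1G93A female of pool B the log2 change of −0.11 became 0.01, and without that of pool C it was −0.30. Without the nuclei of cluster 11 it was −0.15 (edgeR adjusted p = 0.714).

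Measured against all nuclei, the VE share was 9.69% ± 1.47 in WT and 7.41% ± 1.98 in SOD1G93A mice, and it was lower in 6 of 6 pairs (exact permutation p = 0.0312, the smallest possible, adjusted p = 0.156). Neurons as a whole made up 63.8% and 52.4% of nuclei and were lower in 6 of 6 pairs too, so the VE share moved with that of all neurons. Fewer cells and fewer nuclei recovered or labelled cannot be told apart in these data. Shares of neurons of the other sub-types set beside VE, as WT and SOD1G93A means, were 35.2% and 35.6% for DE, 2.17% and 2.57% for ME, and 5.34% and 5.43% for VI neurons, with exact permutation adjusted p of 1.0, 0.875 and 1.0 over the 7 other sub-types.

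The makeup of VE neurons was also set beside genotype, after the clusters had been seen. Cluster 0, with the highest Slc17a6, held 48.6%, 52.7% and 56.1% of VE nuclei in WT mice (52.8% ± 2.56) and 39.5%, 46.9% and 50% in SOD1G93A mice (45.5% ± 4.50). It was lower in 6 of 6 pairs, although the groups overlapped, and did not pass after adjustment (exact permutation p = 0.0312, adjusted p = 0.188 over 6 measures). The share of VE nuclei with at least 3 inhibitory UMIs was 19.0% in WT and 24.6% in SOD1G93A mice and higher in 5 of 6 pairs (exact permutation p = 0.0625, adjusted p = 0.188). This share depends on depth and was not thinned here. The mouse with the larger median of UMIs per VE nucleus had the larger share in every pair but the males of pool B. In those males the medians were 22598 UMIs in WT and 17197 in SOD1G93A. The part of depth in this share was not tested. Cluster 11 held 7.33% and 10.1%, cluster 14 held 13.2% and 17.7%, and cluster 4 held 17.4% and 16.9% of VE nuclei. As a share of neurons, VE nuclei of cluster 0 made up 7.96% and 6.40% (lower in 5 of 6 pairs, exact permutation p = 0.0625, adjusted p = 0.156).

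**Figure D2:**
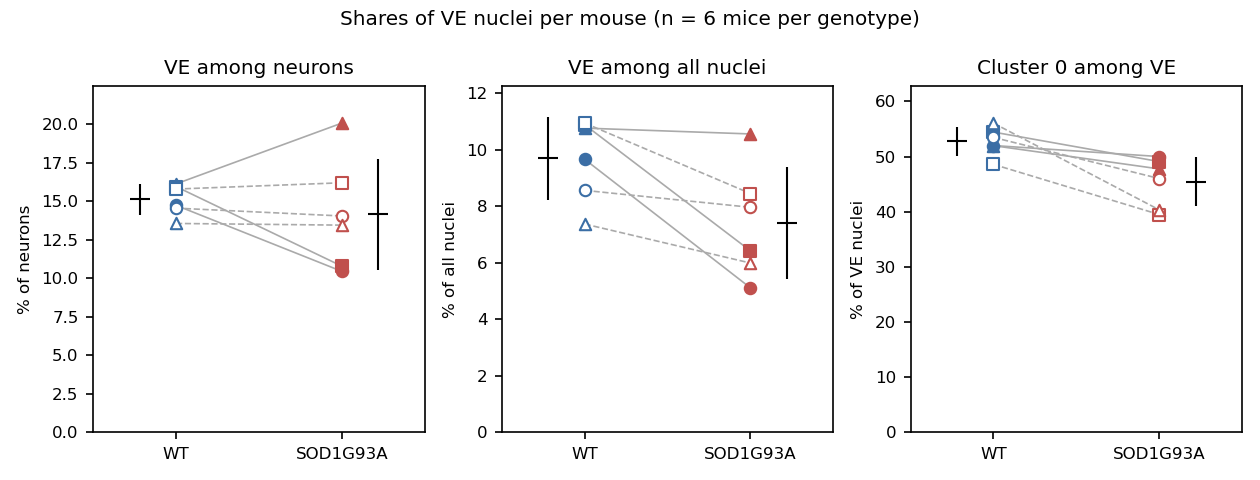
VE nuclei as percent of neurons, VE nuclei as percent of all nuclei, and cluster 0 as percent of VE nuclei (y axes) in each WT and SOD1G93A mouse (x axis). Circles, squares and triangles are pools A, B and C, filled for females and open for males, lines join the mice of 1 sex and pool (dashed for males), and bars are means ± SD. The VE share of all nuclei and the cluster 0 share were lower in SOD1G93A in 6 of 6 pairs, and the VE share of neurons in 4 of 6.

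Genotype effects on genes were tested on UMI sums of each mouse with limma voom and a pool term, with FDR < 0.1 for a differentially expressed gene (DEG). Sod1, the mouse counterpart of the transgene, was examined first. Levels are now CPM on library sizes scaled among the VE sums. Sod1, which encodes the cytosolic superoxide dismutase (chromosome 16, 90220754 to 90226329 on GRCm38) and to which reads of the human transgene can also map, was at 22.1, 24.7, 25.8, 26.9, 38.1 and 69.6 CPM in the WT mice. In the SOD1G93A mice it was at 52.2, 65.0, 67.2, 102, 139 and 204 CPM. It was higher in 6 of 6 pairs, although the WT female of pool A (69.6) lay above 3 SOD1G93A mice of other pools. Within pool A the SOD1G93A mice were at 139 and 204 CPM.

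Sod1 was the only DEG of 11482 genes tested in VE neurons (0.00871%), with a 3.12-fold rise (95% interval 2.45 to 3.97, log2 1.64 ± 0.16 SE, limma adjusted p = 0.00085). There were 383 genes with an unadjusted p under 0.05 (3.34%), 172 with higher (1.5%) and 211 with lower values (1.84%) in SOD1G93A mice. Both edgeR and DESeq2 called 4 genes (0.0348%), which were Sod1, Xpo1, Cadps2 and Glra3. Without a pool term Sod1 did not pass and there were 0 DEGs, and leaving out single WT mice changed the count, to 3 (WT female A), 6 (WT female B), 3 (WT female C) and 6 (WT male A). It was 14 without the 4 mice of pool A and 3 without the nuclei of cluster 11. Sums as low as 583856 UMIs limit what a smaller change could show.

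The genes of smallest p, 5 with higher and 5 with lower values in SOD1G93A mice, that moved the same way in 6 of 6 pairs are given whether or not they passed. Apart from Sod1 they did not pass in limma. Since they were chosen by p and direction in these same mice, a lack of overlap between the groups is not separate support. Xpo1, the exporter of proteins from the nucleus (chromosome 11, 23256041 to 23298249), was at 66.2, 74.7 and 84.9 CPM in WT mice (lowest, median and highest) and at 91.3, 104 and 118 in SOD1G93A mice. The groups did not overlap (log2 0.47 ± 0.09 SE, limma adjusted p = 0.118, and 0.0473 to 0.886 over 24 alternatives, of which 8 passed). Cadps2, a factor in the release of dense-core vesicles (chromosome 6, 23262773 to 23839421), was at 62.8, 74.5 and 94.4 CPM in WT and at 37.6, 52.6 and 59.4 in SOD1G93A mice, without overlap (−0.59 ± 0.12, limma adjusted p = 0.144, and 0.0473 to 1.0 over 24 alternatives, of which 7 passed). Among the nuclei of cluster 0 alone its log2 change was −0.16. Glra3, the glycine receptor alpha 3 gene (chromosome 8, 55940460 to 56130070), was at 84.9, 103 and 126 CPM in WT and at 61.1, 70.9 and 77.0 in SOD1G93A mice, also without overlap (−0.53 ± 0.11, limma adjusted p = 0.16, 5 of 24 past).

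The remaining genes were further from the threshold. Hsp90aa1, a cytosolic chaperone gene, was at 17.2, 24.2 and 37.5 CPM in WT and at 19.2, 34.6 and 51.4 in SOD1G93A mice, which overlapped (0.52 ± 0.12, limma adjusted p = 0.439). Nrp1, a co-receptor for semaphorins, was at 20.8, 27.0 and 36.5 and at 32.5, 40.1 and 59.4 CPM and overlapped in part (0.69 ± 0.16, same adjusted p). Slc6a5 was at 32.7, 39.3 and 49.1 and at 47.9, 55.7 and 70.4 CPM, with 1 WT mouse above the lowest SOD1G93A mouse (0.52 ± 0.12, same adjusted p). Its difference fell below 0 (log2 −0.17) without the nuclei of at least 3 inhibitory UMIs, a criterion that itself uses Slc6a5. It was 0.64 without the nuclei of cluster 11 (limma adjusted p = 0.556). Lhfp (28.5 and 15.5 CPM in the median, −0.81 ± 0.19), the adhesion gene Flrt2 (163 and 119, −0.41 ± 0.10) and the M-current channel gene Kcnq5 (406 and 308, −0.36 ± 0.10) had limma adjusted p of 0.455, 0.577 and 0.868, and for each the groups overlapped.

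**Figure D3:**
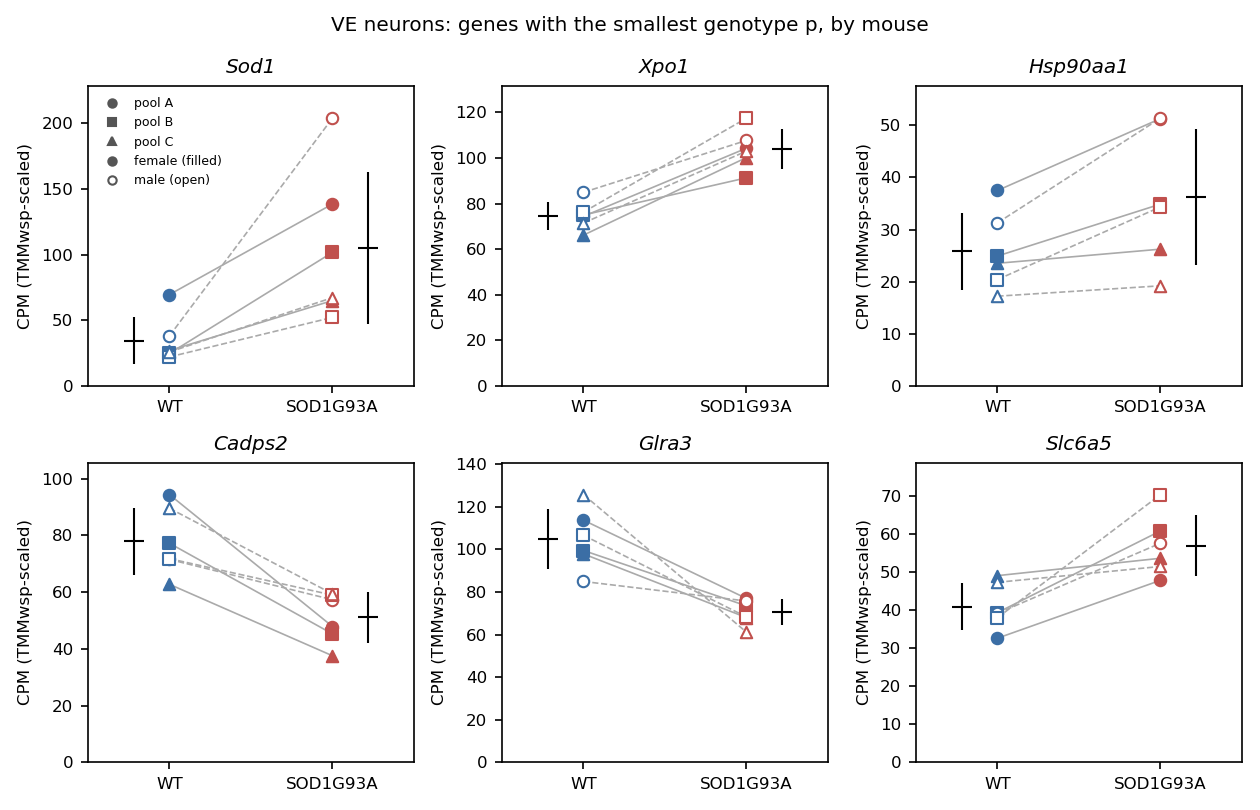
Levels (y axes, CPM on scaled library sizes) of Sod1, Xpo1, Hsp90aa1, Cadps2, Glra3 and Slc6a5 in VE neurons of each WT and SOD1G93A mouse (x axis), with symbols for pool and sex as circles, squares and triangles (pools A, B and C), filled for females and open for males, and lines between mice of 1 sex and pool. The genotypes do not overlap for Xpo1, Cadps2 and Glra3, which were chosen by their genotype p. For Sod1 the WT female of pool A reaches 69.6 CPM.

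By list, only the ALS genes had a DEG, which was Sod1, 1 of 25 tested, beside 0.00871% of all genes. Reads of the transgene can map to Sod1, so this count is not a result about the list. No other list had a member that passed. The median log2 change of the ALS genes was 0.05, against 0.00 over all genes. The ALS list also held Tbk1, a kinase gene, at 55.1 CPM in WT and 46.9 CPM in SOD1G93A mice (−0.28 ± 0.12, limma adjusted p = 0.999). Of 10 heat-shock genes, 2 had an unadjusted p under 0.05, both with a higher value in SOD1G93A mice (Hsp90aa1 and Dnaja1), beside 1.5% of all genes, and the median was 0.14. The 11 genes of the unfolded protein response and stress had 0, with a median of 0.10, and the 6 axon injury genes had 1, Sox11, at 15.1 and 11.005 CPM. Of 16 GABA and glycine receptor genes, 3 had an unadjusted p under 0.05 and lower values in SOD1G93A mice (Glra3, Gabrg3 and Gabrg1), beside 1.84% of all genes, with a median of −0.08. AMPA and NMDA receptor genes (12 tested, median −0.03) and kainate, delta and metabotropic receptor genes (13, median −0.05) had 0. Potassium channel genes had 1 higher and 3 lower of 33, and the neurofilament genes 1 of 4 (Nefh, 27.1 and 36.2 CPM). The 7 genes of GABA and glycine release had a median of 0.23, with Slc6a5 as the member under 0.05, and moved with the share of nuclei with inhibitory UMIs given above. The part of that share in them was not tested, since the nuclei were marked by some of the same genes.

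Markers of other cells in VE sums overlapped between the genotypes. The 7 oligodendrocyte markers summed to 152, 233 and 296 CPM in WT and 108, 209 and 257 in SOD1G93A mice, with 0 of 7 at 0. The 7 astrocyte markers summed to 1041, 1212 and 1320 and to 899, 1180 and 1407 CPM, of which 0 were at 0, and the 5 microglial markers to 41.0, 70.6 and 104 and to 58.3, 72.5 and 86.4 CPM. Their part in the genotype values was not tested.

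The sexes differed at 8 of 11482 genes (0.0697%, limma), of which 4 were on Y and 3 on X. The Y genes were Uty, Kdm5d, Eif2s3y and Ddx3y. Uty was at 203, 229 and 272 CPM in males and at 0.742, 5.01 and 5.97 CPM in females, so that every mouse stood with its labelled sex. On X were Xist (means of 294 and 13.0 CPM in females and males), Tsix and Kdm6a, a histone demethylase gene known to escape X inactivation (96.7 and 65.2 CPM, log2 0.57 ± 0.10 SE, limma adjusted p = 0.007). The autosomal gene was Nxpe4 on chromosome 9 (73.5, 86.0 and 97.2 CPM in females and 49.7, 56.4 and 88.2 in males, 0.52 ± 0.11, limma adjusted p = 0.0802), for which the sexes overlapped. A genotype effect that differed between the sexes was called for 0 of 11482 genes (0.0%) with limma, which had 332 with an unadjusted p under 0.05, and for 0 with edgeR (363) and with DESeq2 (151). Without the WT female of pool B, limma called 14.

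Whether genotype acted differently on VE neurons than on other sub-types was tested as the difference of the effects, within mice. Here and below, the effects given for single sub-types come from a separate fit of each. They need not subtract exactly to the difference. Against DE neurons, 17 of 12875 genes (0.132%) passed. Sod1 itself rose more in VE (log2 1.64) than in DE neurons (1.13), with a difference of 0.52 ± 0.12 SE (limma adjusted p = 0.0908). Foxp2 was at −0.58 in VE and 0.94 in DE neurons (difference −1.54 ± 0.28, adjusted p = 0.0603), Hs3st2, a heparan sulfate sulfotransferase gene, at 0.70 and −0.46 (1.01 ± 0.20, adjusted p = 0.06) and Elavl2, a neuronal RNA-binding protein gene, at 0.16 and −0.28 (0.42 ± 0.09, adjusted p = 0.0603). Mobp, a myelin gene, had the largest negative value after Foxp2 among the named genes (−0.45 and 0.67, difference −1.21 ± 0.21, adjusted p = 0.0415). The summed oligodendrocyte markers in DE neurons moved with it, at 340, 363 and 588 CPM in WT and 460, 582 and 979 in SOD1G93A mice, and their part in this difference was not tested. The rest that can be named were Gpm6b, Cadm1, Map7, Cdk19, St3gal4 and Sash1, with lower values in VE, and Arpp21 and Brinp3, with higher ones. The count was unsteady, with 3 (without WT male C), 8 (WT female A), 28 (SOD1G93A female A), 32 (SOD1G93A female B), 32 (SOD1G93A male A), 33 (WT male A), 41 (SOD1G93A male C) and 58 (WT male B), and Sod1 passed in 9 of 16 alternatives. It was 35 without the nuclei of cluster 11, where Foxp2 did not pass (limma adjusted p = 0.125) although its difference was −1.76.

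Against ME neurons, 1 of 7960 genes (0.0126%) passed, which was the adhesion gene Alcam (−0.13 in VE and 0.59 in ME, difference −0.69 ± 0.12, limma adjusted p = 0.0486). When single mice were left out, it passed without the SOD1G93A male of pool C or the WT male of pool B, and there were 0 genes without any of the other 10 mice. Without the nuclei of cluster 11 there were 0 genes too (Alcam −0.66, limma adjusted p = 0.138). Against VI neurons, 14 of 10817 genes (0.129%) passed. Slc6a5 was at 0.52 in VE and −0.02 in VI neurons (0.57 ± 0.13, limma adjusted p = 0.0757, and 0.0363 to 0.403 over 16 alternatives, of which 8 passed). It was 0.66 without the nuclei of cluster 11, and the share of VE nuclei with inhibitory UMIs, given above, moved with it. That share is itself defined in part by Slc6a5, so it is not separate support, and its part in the difference was not tested. Cacna2d3 was at 0.22 and −0.18 (0.39 ± 0.08, adjusted p = 0.0116). Prkch, a protein kinase C gene, was at 0.42 and −1.21 (1.53 ± 0.32, adjusted p = 0.0404). Galnt18 (−0.86 ± 0.16), Cdh19 (−1.65 ± 0.31), Daam2 (−1.73 ± 0.33) and Pid1 (−0.53 ± 0.10) had lower effects in VE neurons, each with an adjusted p of 0.0116. Dock10 (−0.48 ± 0.11, adjusted p = 0.0957), Mctp2 (1.11 ± 0.26, same adjusted p) and Clmp (0.51 ± 0.12, adjusted p = 0.0967) passed too. Several of the 14, Mobp among them, are genes of myelinating cells, and the oligodendrocyte markers in VI neurons summed to 159, 163 and 175 CPM in WT and 189, 236 and 460 in SOD1G93A mice; their part was not tested. The count was 6 without WT female A or SOD1G93A male C, 8 without SOD1G93A female C or male A, and 9 without WT female C, and 21 without the nuclei of cluster 11.

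The response of motor neurons differed most. The difference of the genotype effects, VE minus motor neurons, passed for 238 of 8606 genes (2.77%), of which 152 were above and 86 below 0. Sod1 rose less in VE neurons (1.64 against 3.85, difference −2.01 ± 0.29, limma adjusted p = 0.000324). Gap43 was at 0.05 in VE and 2.66 in motor neurons (−2.34 ± 0.38), and Sox11, a factor induced in injured neurons, at −0.45 and 1.45 (−2.004 ± 0.38). The actin gene Actg1 was at −0.15 and 1.75 (−2.17 ± 0.41). In the other direction, Trps1, a transcriptional repressor, was at 0.25 and −0.96 (1.28 ± 0.18), the kinase genes Prkca at −0.03 and −1.34 (1.43 ± 0.23) and Prkcb at −0.08 and −1.26 (1.25 ± 0.20), and the receptor scaffold gene Grip1 at 0.05 and −1.07 (1.21 ± 0.19). The ephrin receptor gene Epha3 was at 0.05 and −1.46 (1.60 ± 0.27) and L3mbtl4 at −0.19 and −1.83 (1.54 ± 0.23). For these genes the adjusted p of the difference was at most 0.00319 (limma).

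**Figure D4:**
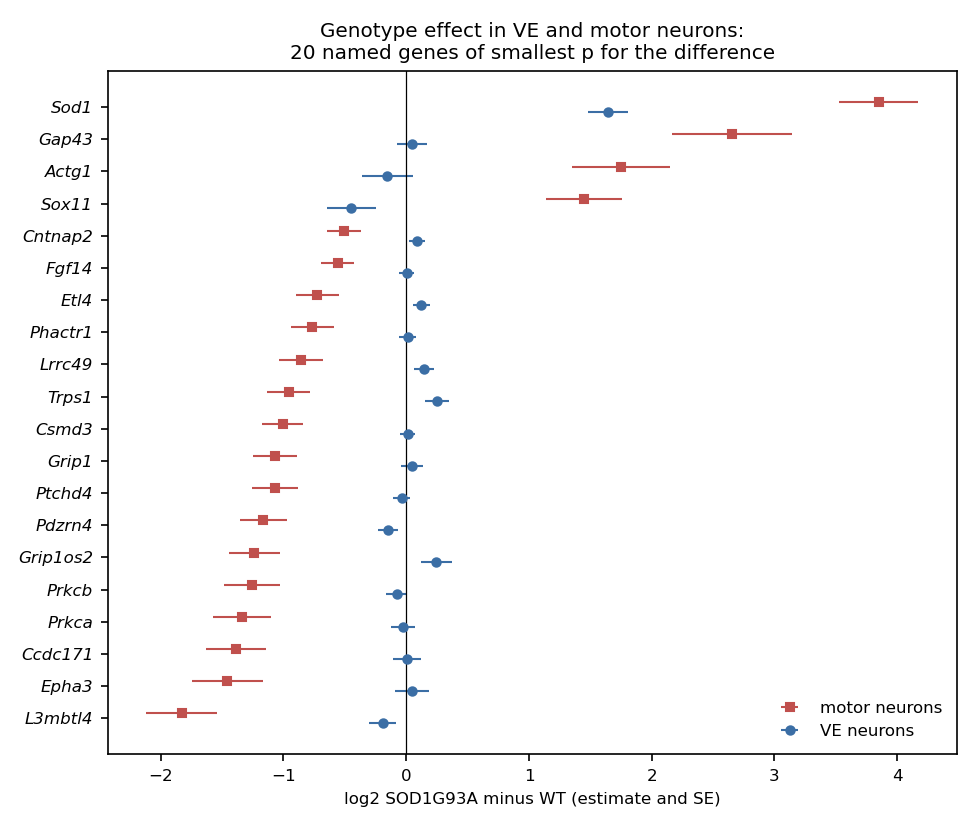
Log2 genotype effect (x axis, SOD1G93A minus WT, with SE as bars) in VE and in motor neurons for the 20 named genes (y axis) whose effects differed with the smallest p. In VE neurons those other than Sod1 lie between −0.45 and 0.25, while motor neuron effects reach 3.85 for Sod1 and 2.66 for Gap43.

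Motor neurons alone had 157 DEGs of 5118 genes (3.07%), and 155 of these were tested in VE neurons. Of the 155, 1 was called in VE neurons (Sod1), beside 0.00871% of all genes, and 8 had an unadjusted p under 0.05, beside 3.34% of all genes. The median size of their log2 change was 0.09 in VE and 1.01 in motor neurons, but the second value is that on which they were chosen, while over all genes the VE median was 0.10. For 107 of them the difference itself had passed, beside 2.77% of all genes. This count is high in part by construction, since the difference holds the motor neuron effect on which they were chosen. Motor neurons came to 1 to 11 nuclei per mouse, and the count of 238 was 56 without the SOD1G93A male of pool C, 93 without the WT male of pool C, 127 without the WT male of pool B, 137 without the WT female of pool A and 154 without the WT female of pool C. It was 137 with edgeR and 216 without the VE nuclei of cluster 11.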

How the data were processed

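Single-nucleus RNA sequencing of 12 lumbar cords was analysed. The authors demultiplexed with bcl2fastq 2.20.0.422 and counted UMIs with Cell Ranger 3.1 and STAR 2.5.1b on mm10 with introns included, per the labels and methods, and the deposited counts are UMIs per gene and nucleus without normalization. They removed nuclei with ambiguous hashtags or of low quality. Doublets within 1 mouse were not marked. Deposited per nucleus were also the percent of mitochondrial UMIs and the mapping score, a fraction of 1. With Seurat 4.0.3 the authors clustered nuclei integrated over the pools and mapped neurons to a published atlas, which gave the sub-types. The deposited table of integrated values was not used, since sums need counts.

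UMIs of VE nuclei were summed per mouse (583856 to 6452469). Following the study's methods, genes passed filterByExpr (minimum count of 10), were scaled with TMMwsp and tested with limma 3.58.1 (voom, robust eBayes) with terms for each group of sex and genotype and for the pool, at FDR < 0.1 after Benjamini-Hochberg adjustment. Robust eBayes is not named in those methods. Differences between sub-types in the genotype effect had a term per mouse and, for VE, terms for sub-type, pool, sex and genotype. Shares were tested with edgeR 4.0.16 on nuclei and with exact sign flips over 6 pairs of the same sex and pool. DESeq2 1.42.0 was an alternative. Levels of sub-types per mouse used a prior count of 2. The fits were tested on simulated data.

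The pool, which is shared by the mice of 1 preparation, was the block in every fit. Deviations from group means correlated with a median r of 0.142 within and −0.0776 between pools. Since the deviations within a group cancel out, the second value follows largely from the first and is not separate support for the block. Members, lists and tests were chosen with earlier results of these data known. Named are the 8 genes of largest ratio per direction and sub-type, every gene past FDR < 0.1 in a VE test (against motor neurons, only some of the 238), the 5 genes per direction of smallest genotype p with the same direction in 6 pairs, and members of 32 lists. Genes named from comparisons of clusters and finer labels were chosen after their values were seen. Genes on chromosome 18, unnamed gene models and some other members of the lists are not reported here, although the counts hold them. Positions are those of GENCODE M21 on GRCm38. The p-values weigh a difference against the spread between mice, not between nuclei.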

Additional observations from a re-analysis of the deposited data

Results flagged for a closer look

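In groups of 6 mice, an outlying mouse was sought with Dixon's ratio at its 95% critical value in 44 groups, and 2 were found, about the number that chance would give. Sod1 was at 69.6 CPM in VE neurons of the WT female of pool A, against 22.1 to 38.1 CPM in the other WT mice. Flrt2 was at 120 CPM in the WT female of pool B, against 160.2 to 178 CPM.

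The genotype effect differed by a test of the difference between VE and other sub-types for 17 genes (DE), 1 gene (ME), 14 genes (VI) and 238 genes (motor neurons). These comparisons share the VE sums, and all counts other than the last were below 1% of the genes tested.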

How the results depend on the processing

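Of 1978 values recomputed under alternatives, 1540 of single genes and 197 of counts and shares kept their direction and their side of the threshold. Among single genes 163 lost and 22 gained a call. The number of VE genes called by genotype (1) was 4 with edgeR, 4 with DESeq2, 2 at a minimum count of 30, 14 without the mice of pool A, 3 without the nuclei of cluster 11, and 1 to 6 without single mice. Without the pool term, that is with no replicate block, it was 0. Genes with an effect that differed between the sexes came to 0 to 14 without single mice. For the differences of the genotype effect, 17 (VE minus DE) became 10 at a minimum count of 30, 35 without the nuclei of cluster 11 and 3 to 58 without single mice, 1 (ME) became 0 without those nuclei and 0 to 1 without single mice, 14 (VI) became 21 without those nuclei and 6 to 18 without single mice, and 238 (motor neurons) became 137 with edgeR, 144 at a minimum count of 30 and 56 to 279. The log2 change of the VE share among neurons ran from −0.299 to 0.0135 without single mice, where 0.0135 was without the SOD1G93A female of pool B, and the difference in percent of all nuclei was −2.28. The change of Slc6a5 turned to −0.17 without nuclei of at least 3 inhibitory UMIs. Counts of genes that parted sub-types followed the CPM minimum: at 20 and 100 CPM, 384 and 142 were higher and 467 and 167 lower than in DE, 191 and 56 were higher than in ME, 13 and 4 were higher than in VI, and at 20 CPM 9 were lower than in VI. Without single mice these counts were 222 to 235 higher and 253 to 262 lower than in DE, 101 to 115 and 75 to 89 (ME), and 7 to 9 and 5 (VI). The cause of these changes was not tested, other than that a stricter minimum leaves fewer genes. Precision is limited by the mouse with 28 VE nuclei and by motor neurons with 1 to 11 nuclei per mouse.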
